A study of Mus musculus with 12 samples.

Results

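Expression of 10 genes of fat cells was followed through tumours that grew in the mammary fat pad, the fatty tissue in which the mammary gland lies. The genes were Adipoq, Fabp4, Plin1, Plin4, Cidec, Car3, Pparg, Lpl, Cfd and Lep, 10 of the 25116 genes in the count table, chosen by symbol as known adipocyte genes. Each was matched by its symbol to 1 row, and all 12 tumours were used. E0771, a line of triple-negative breast cancer from the mouse, was implanted into syngeneic Tie2CreER;ERKi C57BL/6J mice. Every mouse carried Tie2CreER, a recombinase that tamoxifen activates and that the Tie2 promoter drives in endothelium, together with a knock-in allele that is inducible and encodes endorepellin, the C-terminal part of perlecan. The 7 induced tumours came from mice given tamoxifen and the 5 control tumours from mice given the control injection, both harvested at day 22. Because controls had no tamoxifen, the knock-in gene and tamoxifen itself cannot be told apart. The age of the mice is not given in the labels used here. The labels do not say that each tumour came from a separate mouse, so p-values measure the spread between these samples only.

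White adipocytes store triglyceride in 1 large lipid droplet, take up fatty acids that lipoprotein lipase frees from circulating lipoproteins, and secrete hormones and complement factors. The nuclear receptor PPAR-gamma, together with C/EBP factors, drives their differentiation and keeps many of these genes on. In a breast tumour, fat cells of the pad lie at the invasive edge, so a tumour sample can hold more or fewer of them. Fabp4, Lpl and Pparg are also made by other cells, Fabp4 by capillary endothelium and macrophages and Lpl and Pparg by macrophages, whereas Adipoq, Plin1, Cidec and Lep are largely made by fat cells. In bulk RNA, fewer cells of a type and less RNA per cell cannot be told apart.

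RefSeq promoter windows on GRCm38.p6 were found for 7 of the 10 genes, as 10 windows because Cidec and Pparg have several starts, and they are shown here because the genes turned out to vary together between tumours. The part searched was the 250 bases before each start, on both strands. TTGCNNAA, a C/EBP-type motif, was found for Cidec, Lep, Plin1 and Pparg, in 4 of 10 windows, while 9.571% of all 32817 windows held it. CCAAT was found for Adipoq, Plin4 and Pparg, in 4 of 10 windows, against 33.83% of all windows. The DR1 repeat, AGGTCA in 2 copies with 1 base between them, to which PPAR-gamma binds with RXR, was in 0 of 10 windows and in 0.03352% of all windows. No match of 1 motif overlapped a match of another. A match is a description of letters and not a bound site. The sequences below, 5′ to 3′ on the gene's strand, are those of the hormone genes Adipoq and Lep, the lipid droplet gene Cidec and the regulator Pparg at the third of its starts, with matches to TTGCNNAA or CCAAT on either strand in capitals. They lie at chr16:23146286-23146535 (plus strand), chr6:29059971-29060219 (plus), chr6:113434765-113435014 (minus) and chr6:115421816-115422065 (plus). Bases that GENCODE places in an exon were left out.
Adipoq: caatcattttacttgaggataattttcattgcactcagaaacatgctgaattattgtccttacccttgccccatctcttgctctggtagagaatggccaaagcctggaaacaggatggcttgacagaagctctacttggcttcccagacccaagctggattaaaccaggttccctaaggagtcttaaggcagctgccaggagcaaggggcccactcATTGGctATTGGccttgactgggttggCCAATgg
Lep: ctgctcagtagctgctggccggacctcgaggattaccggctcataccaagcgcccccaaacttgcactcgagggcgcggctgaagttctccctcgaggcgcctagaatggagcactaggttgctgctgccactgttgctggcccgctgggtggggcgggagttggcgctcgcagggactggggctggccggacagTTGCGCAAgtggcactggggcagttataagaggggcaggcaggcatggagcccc
Cidec: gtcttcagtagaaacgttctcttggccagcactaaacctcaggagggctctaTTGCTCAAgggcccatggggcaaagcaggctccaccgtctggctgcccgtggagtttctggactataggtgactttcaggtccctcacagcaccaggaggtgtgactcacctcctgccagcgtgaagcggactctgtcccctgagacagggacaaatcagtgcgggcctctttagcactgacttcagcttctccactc
Pparg: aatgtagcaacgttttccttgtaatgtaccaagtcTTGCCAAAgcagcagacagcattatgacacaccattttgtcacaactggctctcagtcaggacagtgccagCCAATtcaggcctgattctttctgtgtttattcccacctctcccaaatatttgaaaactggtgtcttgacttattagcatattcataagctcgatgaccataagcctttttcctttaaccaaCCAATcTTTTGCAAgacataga

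Library totals were 18993192 to 28372821 counts, and 21350 to 24087 genes had a count. Control 1, the first control tumour, stood apart: it was highest of the 12 for 8 of the 10 adipocyte genes, with summed levels of 3346 CPM (depth-normalised read count) over 10 fibroblast genes and 1994 CPM over 10 macrophage genes. The fibroblast sum was 678 to 1211 CPM in the other controls and 549 to 2029 CPM in induced tumours, and the macrophage sum 296 to 492 CPM and 184 to 1259 CPM. Induced 4 held the second highest sum of both lists. No gene of either list stayed under 0.5 CPM in every tumour. How much of the adipocyte gene values came from these cells was not tested, and correlations with the marker sums are given below. Values without control 1 are given beside group differences in the fits below. The growth and treatment fields of the labels tell of a mesenchymal line, C3H 10T1/2, turned into fat cells in culture, and not of tumours, so groups were taken from the titles and the treatment label. Here Adipoq, the defining hormone of fat cells, had 0 counts in 2 of the 12 libraries and at most 6.45 CPM.

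No group difference in the 10 genes exceeded the spread between tumours, which was wide. Of the 9 that passed the filter on low counts, 8 had lower fitted values in induced tumours and 1, Fabp4, a higher one, and 0 had an adjusted p under 0.05 or an unadjusted p under 0.05. Over all 15199 genes tested, 0% were called by edgeR, 2.13% (324 genes) had an unadjusted p under 0.05 and 50.2% had lower and 49.8% higher fitted values in induced tumours. DESeq2 and limma-voom with quality weights called 0 as well, and before adjustment put 607 and 996 genes under 0.05. The median log2 fold change was -0.65 for the 9 genes and -0.00083 over all genes. The lower values rested on control 1: without it, 3 of 9 were lower, with a median of 0.19, beside 50.6% of 15389 genes. Markers of some other cell types had lower fitted values as well, with 0 called by edgeR. These were 10 of 10 fibroblast genes (median log2 fold change -1.16, 1 with an unadjusted p under 0.05), 8 of 10 macrophage genes (-0.55, none under 0.05) and 6 of 6 B cell genes (-1.35, 2 under 0.05). Others were split or mostly higher: 5 of 10 endothelial (median 0.03), 6 of 11 skeletal muscle (-0.14), 1 of 3 mammary epithelial (0.16) and 0 of 5 erythroid genes (0.32) were lower. Without control 1, 3 of 10 fibroblast genes (median 0.43) and 1 of 10 macrophage genes (0.32) were lower, and 6 of 6 B cell genes (-1.43, 4 with an unadjusted p under 0.05, 0 called). The B cell sum was highest in control 4 and control 5, at 35.1 and 29.5 CPM. In control 1, control 2 and control 3 it was 7.45, 3.64 and 4.54 CPM, within the range of 3.30 to 9.83 CPM of induced tumours. The lower B cell values in induced tumours thus rested on control 4 and control 5. No B cell gene stayed under 0.5 CPM in every tumour. Control and induced values overlapped for every one of the 10 genes, where 0.0592% of all genes had groups that did not overlap.

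**Figure D1:**
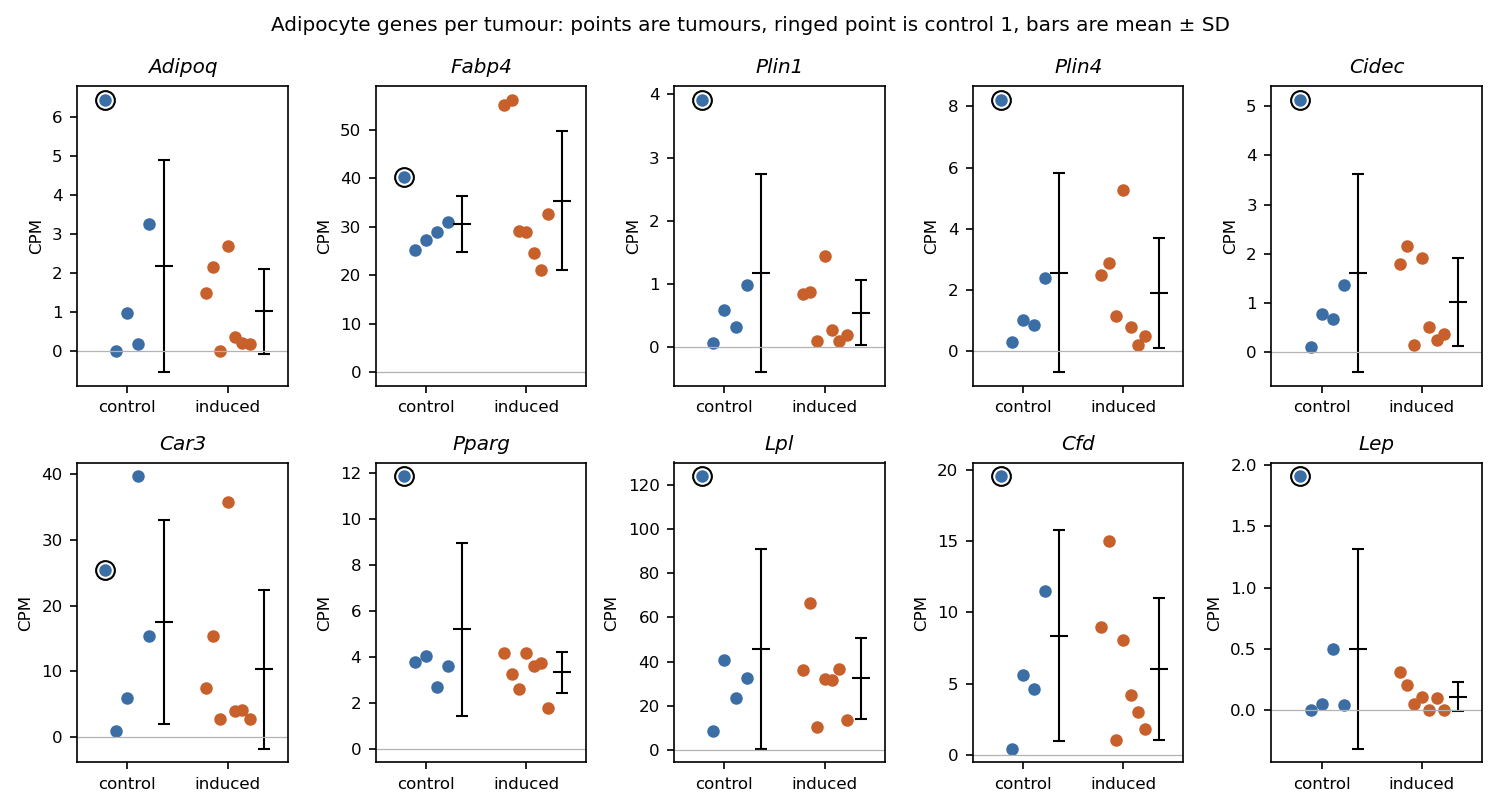
Level of each adipocyte gene in every tumour, in CPM on a linear axis that differs between panels, with points for the 5 control and 7 induced tumours and bars for the mean and SD of each group. The ringed point is control 1, the highest tumour for 8 of the 10 genes, and the groups overlap in every panel.

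Among the secreted products, Adipoq, which encodes the hormone adiponectin, was at 6.45, 0, 0.977, 0.182 and 3.25 CPM in control 1 to control 5. In the induced tumours its lowest level was 0, its median 0.370 and its highest 2.70 CPM. Control 1 and control 5 were the highest tumours, and control 2 and induced 3 had no count, where a floor of 3 counts stands at 0.105 and 0.152 CPM. Against that floor per library, Adipoq was at least 61.4-fold higher in control 1 than in control 2 and at least 42.5-fold higher than in induced 3. Group means were 2.17 ± 2.72 CPM (SD, n = 5) and 1.02 ± 1.09 CPM (SD, n = 7), and the control mean was 1.10 ± 1.49 CPM (n = 4) without control 1. The fit put Adipoq at a log2 fold change of -1.09 (SE 1.08, adjusted p = 0.999886, edgeR quasi-likelihood test), and -0.10 without control 1. The exact permutation test gave a difference in mean log2 CPM of -0.53, 95% interval -3.40 to 2.36 (two-sided p = 0.678; the smallest this design allows is 0.00126). That interval takes in levels from 0.0947 to 5.13 times the control level.

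Cfd encodes adipsin, the complement factor D of fat cells. Its levels in control 1 to control 5 were 19.6, 0.420, 5.62, 4.63 and 11.5 CPM. Induced tumours ranged from 1.01 through a median of 4.16 to 15.0 CPM. The order of the tumours was close to that for Adipoq, with control 1, induced 2 and control 5 highest and control 2 and induced 3 lowest. Cfd had a log2 fold change of -0.48 (SE 0.73, adjusted p = 0.999886, edgeR) and 0.11 without control 1, and the exact 95% interval ran from -2.25 to 1.98 (p = 0.843).

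Lep encodes leptin, the hormone that reports fat stores to the brain. It had the fewest counts of the 10 genes, at 1.91, 0, 0.0489, 0.499 and 0.0471 CPM in control 1 to control 5, which are 55, 0, 1, 11 and 1 counts. In induced tumours it was at 0 at the lowest, 0.103 at the median and 0.317 CPM at the highest, with 0 to 6 counts. Lep had a count in 9 of 12 libraries, failed the low-count filter and has no adjusted p in the fit. The difference in mean log2 CPM was -0.71 (95% interval -2.54 to 0.97, exact permutation test, p = 0.413), and -0.013 without control 1. Control 1 was at 3.82 times the next tumour, control 4.

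Control 1 was also the highest tumour for the lipid droplet genes. Plin1 encodes perilipin 1, the coat protein that guards the large droplet of fat cells against lipases. Control 1 to control 5 held 3.92, 0.0701, 0.586, 0.318 and 0.990 CPM of Plin1. Induced tumours held from 0.101 through a median of 0.277 to 1.44 CPM. Control 1 was 2.72 times the next tumour, induced 4, while control 2, with 2 counts, was at 1.79% of the level of control 1. The fit put Plin1 at a log2 fold change of -1.10 (SE 0.83, adjusted p = 0.999886, edgeR) and 0.19 without control 1, and the exact 95% interval was -2.51 to 1.24 (p = 0.492).

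Cidec encodes a protein that joins small droplets into large ones. Its levels were 5.13, 0.105, 0.782, 0.681 and 1.37 CPM in control 1 to control 5. The induced tumours lay between 0.152 and 2.16 CPM, with a median of 0.508 CPM. Again control 1 was highest and control 2 and induced 3, with 3 counts each, were lowest. Cidec had a log2 fold change of -0.66 (SE 0.80, adjusted p = 0.999886, edgeR) and 0.49 without control 1, and the exact 95% interval was -2.30 to 1.59 (p = 0.711).

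Plin4 encodes perilipin 4, which coats small new droplets in fat cells. It was at 8.22, 0.315, 1.03, 0.862 and 2.40 CPM in control 1 to control 5. In induced tumours it ran from 0.207 through a median of 1.16 to 5.28 CPM. Induced 4 was second to control 1 and induced 6 lowest, so the low end differed from that of Plin1 and Cidec: induced 3 was at 14.2% of control 1 for Plin4, and at 2.58% for Plin1 and 2.96% for Cidec. Plin4 had a log2 fold change of -0.43 (SE 0.80, adjusted p = 0.999886, edgeR) and 0.73 without control 1, and the exact 95% interval was -2.26 to 1.80 (p = 0.818). Of its exonic bases 17 (0.2943%) also lie in Hdgfl2 on the opposite strand, and no other of the 10 genes shared exonic bases with another gene.

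Of the genes of fatty acid handling, Fabp4 varied least between tumours. It encodes a fatty acid carrier of adipocytes that is also abundant in capillary endothelium and macrophages. Fabp4 was at 40.2, 25.2, 27.3, 28.9 and 31.1 CPM in control 1 to control 5. Induced tumours ran from 21.0 through a median of 29.1 to 56.2 CPM. Induced 1 and induced 2 were highest, and control 2 and induced 3, which had no Adipoq count, held Fabp4 at 62.8% and 72.5% of the level of control 1. Fabp4 had a log2 fold change of 0.21 (SE 0.24, adjusted p = 0.999886, edgeR), which was 0.32 without control 1, 0.070 without induced 1 and 0.061 without induced 2, and the exact 95% interval was -0.45 to 0.74 (p = 0.611), the narrowest of the 10.

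Lpl encodes lipoprotein lipase, which frees fatty acids from circulating lipoproteins. Control 1 to control 5 held 124, 8.37, 40.7, 23.6 and 32.5 CPM. Induced tumours held from 10.6 through a median of 31.9 to 66.5 CPM. Control 1 was 1.86 times induced 2, the next tumour, and control 2 and induced 3 were lowest at 6.76% and 8.53% of its level, between the shares seen for Fabp4 and those for Plin1. The fit put Lpl at a log2 fold change of -0.50 (SE 0.56, adjusted p = 0.999886, edgeR) and 0.30 without control 1, and the exact 95% interval was -1.66 to 1.26 (p = 0.783).

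Pparg, the regulator itself, was at 11.9, 3.78, 4.06, 2.68 and 3.58 CPM in control 1 to control 5. Induced tumours ran from 1.76 through a median of 3.61 to 4.17 CPM. Apart from control 1, at 2.84 times the next tumour, the range was narrow, and control 2, the lowest tumour for Plin1, Cidec, Car3, Lpl and Cfd, ranked 5 of 12 for Pparg. Means were 5.19 ± 3.76 CPM (SD, n = 5) and 3.32 ± 0.885 CPM (SD, n = 7), and 3.52 ± 0.597 CPM (n = 4) for controls without control 1. Its log2 fold change of -0.65 (SE 0.35, unadjusted p = 0.0902, adjusted p = 0.999886, edgeR) had the smallest unadjusted p of the 9 genes tested and was -0.09 without control 1. Without control 4 it was -0.82 with an unadjusted p of 0.0381 (edgeR). By the exact permutation test the difference was -0.47 (95% interval -1.29 to 0.22, p = 0.255).

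Car3 encodes carbonic anhydrase 3, an abundant enzyme of fat cells and also of slow skeletal muscle fibres. It was at 25.4, 0.876, 5.96, 39.7 and 15.3 CPM in control 1 to control 5. Induced tumours ran from 2.68 through a median of 4.04 to 35.8 CPM. Control 4 and induced 4 were highest, ahead of control 1. The same 2 tumours had the highest summed levels of 12 skeletal muscle genes, 662 and 547 CPM, where control 1 had the lowest, 9.15 CPM. The sum ran from 9.15 to 662 CPM in controls and from 19.7 to 547 CPM in induced tumours, and no muscle gene stayed under 0.5 CPM in every tumour. Over the 12 tumours Car3 and the muscle sum had r = 0.42 (permutation p = 0.174, rho = 0.371, permutation p = 0.238). Without control 4 and induced 4, r was -0.12. How much of Car3 came from muscle was not tested. Car3 had a log2 fold change of -0.76 (SE 0.80, adjusted p = 0.999886, edgeR) and -0.59 without control 1. Leaving out the muscle-rich tumours moved it further, to -0.22 without control 4 and -1.54 without induced 4, and the exact 95% interval was -2.79 to 1.65 (p = 0.572).

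**Figure D2:**
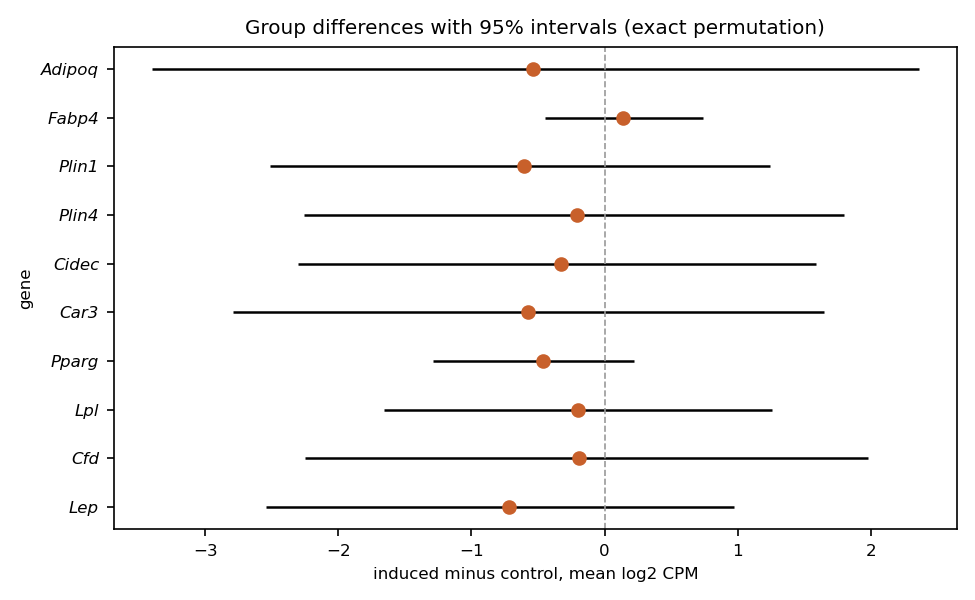
Difference in mean log2 CPM (induced minus control) for each adipocyte gene as a point, with its 95% interval from inverting the exact permutation test over the 12 tumours as a line. Every interval crosses 0, and Fabp4 and Pparg have the narrowest, -0.45 to 0.74 and -1.29 to 0.22.

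In the authors' deposited table the fold changes of the 10 genes had the same directions, from -2.19 for Lep (unadjusted p = 0.0643) and -0.66 for Pparg (unadjusted p = 0.0649) to 0.21 for Fabp4, each with an adjusted p of 0.994. That comparison stands in the same table as the counts and is not separate support.

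Biological variation was high for most of these genes. The biological coefficient of variation, the spread between tumours beyond counting error within groups, was 132% for Adipoq, above 99.9% of all tested genes. It was 84.4% to 96.0% for Plin1, Cidec, Plin4, Car3 and Cfd and 64.3% for Lpl, against a median of 23.8% over all genes tested. For Pparg it was 44.4% and for Fabp4 29.7%, above 81.5% and 62.4% of tested genes.

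Ordered by the mean of the 10 genes, each centred on its own log2 CPM, control 1 came first at 2.23, followed by induced 2 (0.99), induced 4 (0.96), induced 1 (0.69) and control 5 (0.64). Control 2 was last at -1.84, after induced 3 (-1.29), induced 7 (-1.07), induced 6 (-0.83) and induced 5 (-0.52). Both groups were thus found at both ends. The summed level of the 10 genes ran from 39.2 CPM in control 2 to 247 CPM in control 1 among controls and from 47.4 to 165 CPM among induced tumours.

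**Figure D3:**
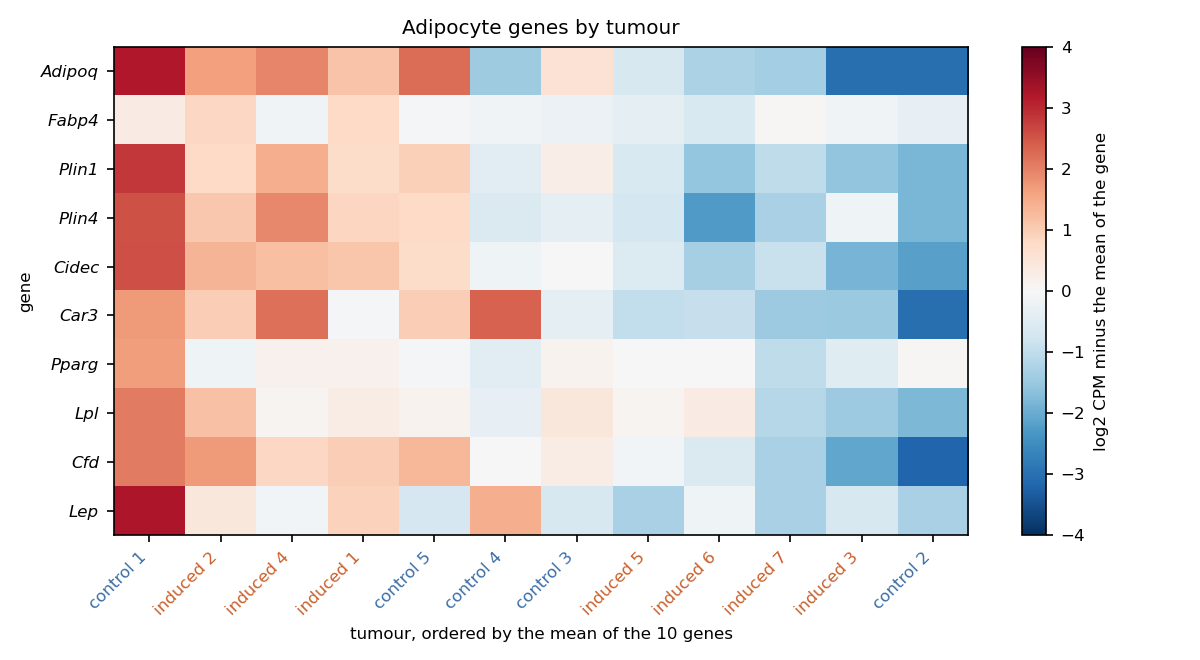
Log2 CPM of each adipocyte gene minus its mean over the 12 tumours, in colour, with tumours in columns ordered by the mean of the 10 genes and names in blue for control and orange for induced. Control 1 (2.23) and control 2 (-1.84) form the ends of the order, and the colours of Fabp4 and Pparg vary least.

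Most of the genes varied together across the 12 tumours. Of 45 pairs, 35 had a Benjamini-Hochberg adjusted permutation p under 0.05 for Pearson's r of log2 CPM and 20 for Spearman's rho. With control 1 left out 19 pairs passed, within the 7 induced tumours 9, and without the pair of tumours farthest from the median of the first gene 12. With fewer tumours, fewer pairs pass at the same r, so these counts cannot show how far the pooled count rests on control 1. The closest pair was Plin1 and Cidec, both droplet genes, with r = 0.98 (rho = 0.965, both permutation p = 1e-05, the smallest 100000 permutations can give), r = 0.96 without control 1 and control 2, the tumours farthest from the median of Plin1, and 0.97 within induced tumours. Among Adipoq, Plin1, Cidec and Cfd, a set picked after these values were seen and so given without a test, r was 0.89 to 0.98, and 0.89 to 0.97 without control 1. Within the 7 induced tumours r in that set was 0.87 to 0.98.

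Fabp4 and Pparg had the lowest median r with the other genes, 0.54 and 0.62. Of the 9 pairs with Fabp4, 2 passed by r, those with Cidec (r = 0.66, adjusted permutation p = 0.0315) and Plin4 (r = 0.63, adjusted permutation p = 0.04). By rho 1 of 9 passed, that with Plin4 (rho = 0.713, adjusted permutation p = 0.0315), while Cidec did not (rho = 0.643, adjusted permutation p = 0.0533). These pairs had r of 0.68 and 0.75 without induced 1 and induced 2, the tumours farthest from the median of Fabp4. Fabp4 and Pparg had r = 0.19 (adjusted permutation p = 0.526) and rho = -0.007 (permutation p = 0.991), and r was 0.37 without the same tumours. Pairs with Pparg had r of 0.19 to 0.71, and 6 of 9 passed by r and 0 of 9 by rho. For Pparg and Lpl, the closest of these pairs, r = 0.71 (adjusted permutation p = 0.0229, rho = 0.517, permutation p = 0.0885) was 0.47 without control 1 and 0.34 without control 1 and induced 7, so the pooled value rests in part on those tumours. Within the 7 induced tumours, which hold induced 7 but not control 1, r for Pparg and Lpl was 0.69. Lpl was closest to Cfd (r = 0.91, adjusted permutation p = 0.000257, rho = 0.818, permutation p = 0.00208). That relation was as close without control 1, at r = 0.91, and was 0.86 without control 1 and control 2.

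**Figure D4:**
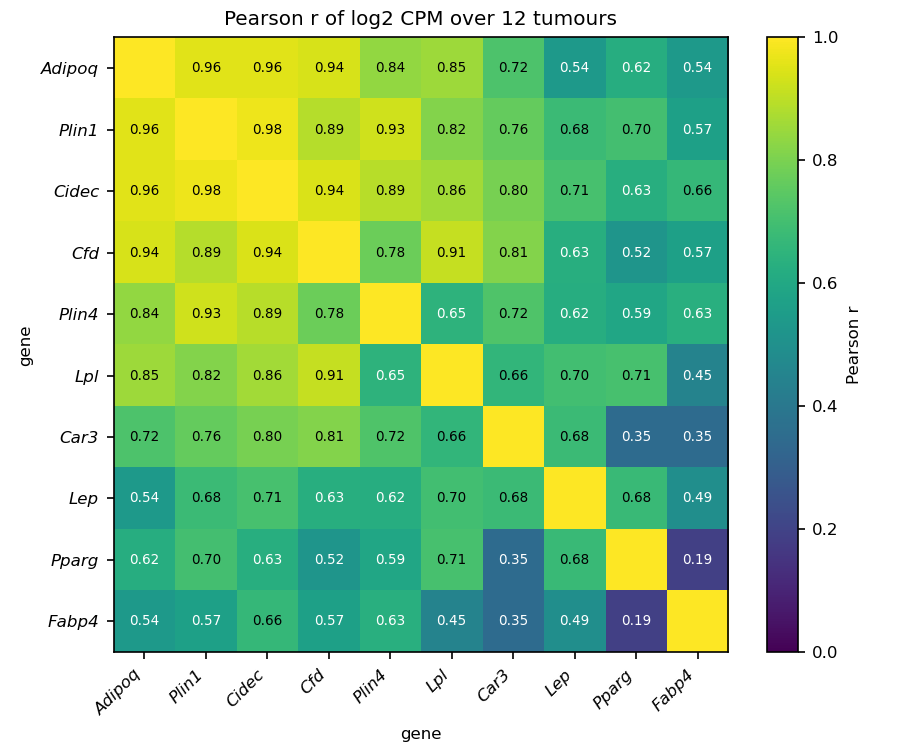
Pearson r of log2 CPM over the 12 tumours for each pair of adipocyte genes, printed in its cell and shown in colour. Adipoq, Plin1, Cidec and Cfd form a block of r from 0.89 to 0.98, and the lowest value is 0.19, for Fabp4 and Pparg.

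Levels can be compared between genes only per length. Per kilobase of the principal transcript, the median over the 12 tumours was 32.4 CPM for Fabp4, 7.82 for Lpl, 5.56 for Cfd, 3.98 for Car3 and 2.07 for Pparg. The other genes were at 0.521 for Adipoq, 0.425 for Cidec, 0.190 for Plin4, 0.160 for Plin1 and 0.0236 for Lep. The ranges over tumours of neighbours in this order overlapped, for example 0 to 4.99 for Adipoq and 0.0611 to 2.98 for Cidec. With all annotated exons merged as the length, only Lpl and Cfd changed places.

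The relation of each gene to 6 marker lists, of progenitors, fibroblasts, endothelium, macrophages, skeletal muscle and B cells, gave 60 correlations. One passed after adjustment, that of Pparg with the macrophage sum (r = 0.85, adjusted permutation p = 0.0294), with rho = 0.671 (adjusted permutation p = 0.71) and r = 0.75 without control 1 and induced 4, the tumours farthest from the median of the list. The other genes had r with the macrophage sum from 0.20 for Fabp4 to 0.74 for Plin1 and Plin4 (adjusted permutation p = 0.0886 for both of the latter). Without control 1 and induced 4, r was 0.26 for Plin1 and 0.31 for Plin4. With the endothelial sum, which ran from 139 to 207 CPM in controls and from 143 to 198 CPM in induced tumours, Fabp4 had r = 0.26 (permutation p = 0.42, rho = 0.203, permutation p = 0.527). With the fibroblast sum, r was highest for Pparg (0.69), Plin4 (0.68) and Plin1 (0.59, permutation p = 0.0429, rho = 0.308, permutation p = 0.331), none passing after adjustment. Without control 1 and induced 4, the pair of tumours farthest from the median, these were -0.04, 0.14 and -0.22. With the progenitor sum, r ran from 0.31 for Fabp4 to 0.65 for Lpl, none passing after adjustment. Without control 1 and induced 4 it ran from 0.20 for Fabp4 to 0.71 for Car3, which had 0.34 over the 12 tumours.

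**Figure D5:**
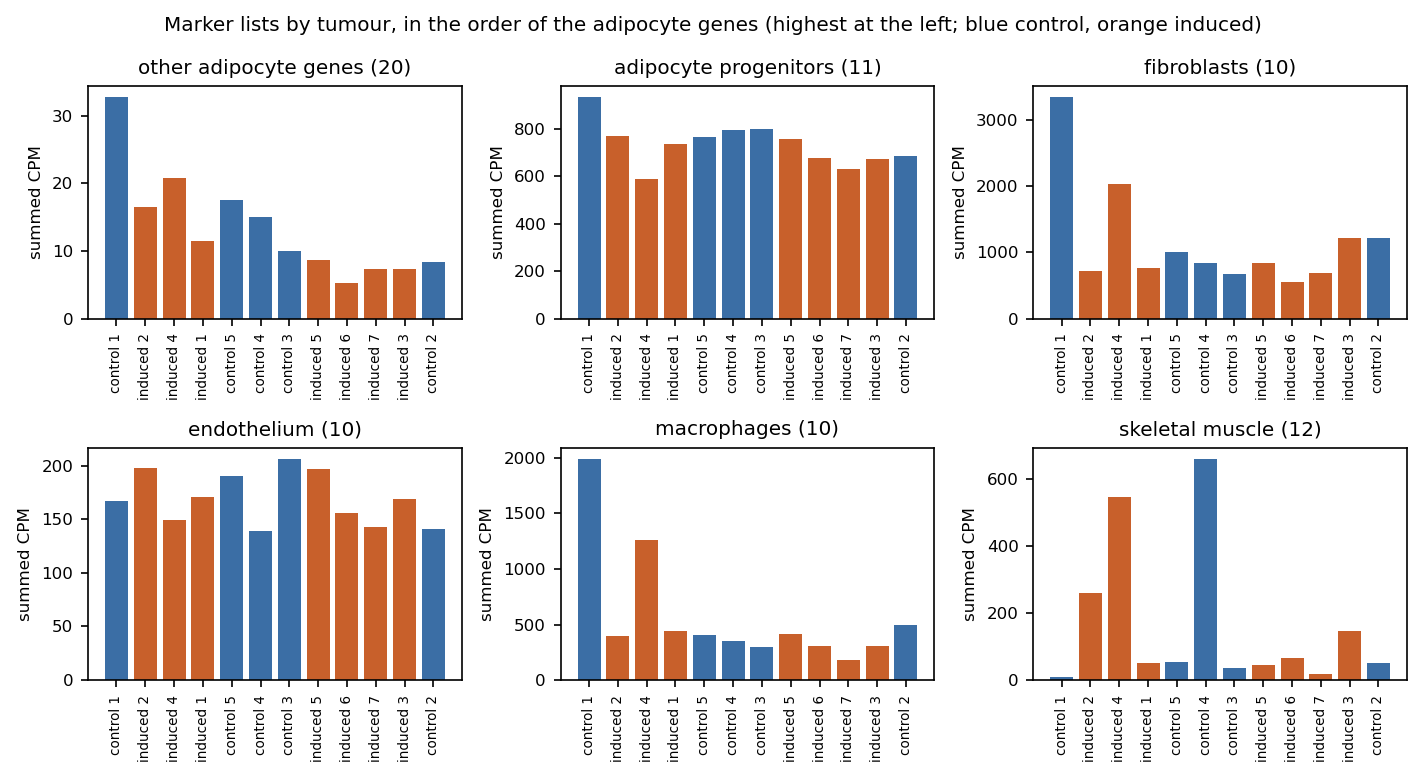
Summed CPM of 6 marker lists per tumour on linear axes from 0, as bars in blue for control and orange for induced, with tumours in the order of the adipocyte genes. The sum of 20 other adipocyte genes is highest in control 1, the fibroblast and macrophage sums are highest in control 1 and induced 4, and the muscle sum is highest in control 4 and induced 4.

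A list of 20 other adipocyte genes had a sum of 8.44 to 32.8 CPM in controls and 5.33 to 20.9 CPM in induced tumours, highest in control 1 and induced 4 and lowest in induced 6. Of the 9 tested, 8 had lower and 1 had higher fitted values in induced tumours, with a median log2 fold change of -0.84 beside -0.00083 over all genes; 0 were called by edgeR and 0 had an unadjusted p under 0.05. Without control 1, 7 of 10 tested were lower with a median of -0.32. Hsd11b1, an enzyme that reactivates glucocorticoids, had control tumours at 2.13 ± 2.05 CPM (SD, n = 5) and induced ones at 0.919 ± 0.604 CPM (SD, n = 7), with the smallest p of the list (log2 fold change -1.21, unadjusted p = 0.0624, adjusted p = 0.999886, edgeR), and -0.50 without control 1. Acvr1c, Slc7a10, Lgals12 and Cidea stayed under 0.5 CPM in every tumour.

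Genes of the wider programme of fat metabolism were split in direction. Of 16 adipogenic regulators tested, 6 were higher and 10 lower, with a median of -0.05, and Cebpb, an early C/EBP factor of fat cell differentiation, was at 220 ± 57.6 CPM (control) and 223 ± 56.1 CPM (induced). Of 12 fatty acid uptake genes, 5 were higher and 7 lower with a median of -0.02. Gpihbp1, which holds lipoprotein lipase on capillaries, was at 6.55 ± 2.11 and 7.82 ± 1.76 CPM. Cd36, a fatty acid transporter, was at 25.1 ± 32.9 and 20.5 ± 21.6 CPM. Lipid synthesis was split into 8 higher and 8 lower of 16, with a median of 0.00064. None of the genes in these 3 lists was called by edgeR or had an unadjusted p under 0.05. Without control 1 the fatty acid uptake genes were 9 higher and 3 lower, the adipogenic regulators 6 and 10 and the lipid synthesis genes 7 and 9.

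Droplet and lipolysis genes gave 4 higher and 8 lower of 12 tested, with a median of -0.09 and 0 called by edgeR, and 7 higher and 5 lower without control 1. One of them, G0s2, an inhibitor of the lipase Pnpla2, had an unadjusted p under 0.05, with a log2 fold change of -2.22 (SE 0.76, unadjusted p = 0.0115, adjusted p = 0.999886, edgeR), at 1.31 ± 1.22 and 0.276 ± 0.291 CPM, and -1.68 without control 1 (unadjusted p = 0.0481, edgeR). Plin2, the perilipin of most cell types, was at 239 ± 37.1 and 254 ± 36.6 CPM. Adipokines and receptors gave 5 higher and 6 lower of 11, and Lepr, the leptin receptor, was at -0.69 log2 (SE 0.31, unadjusted p = 0.0415, adjusted p = 0.999886, edgeR). Without control 1 this list was 7 higher and 4 lower, and Lepr was at -0.40 (unadjusted p = 0.188, edgeR). Thermogenic fat genes gave 2 higher and 4 lower of 6, with Tmem26 at an unadjusted p of 0.0391 (log2 fold change -1.01, SE 0.44, adjusted p = 0.999886, edgeR). Without control 1 these were 1 higher and 5 lower, and Tmem26 was at -0.48 (unadjusted p = 0.24, edgeR). Ucp1, the uncoupling protein of brown fat, had 0 counts in 6 libraries and at most 4. Adipocyte progenitor genes were lower in all 10 tested with a median of -0.21, and Dpp4 had an unadjusted p of 0.0287 (log2 fold change -0.33, SE 0.13, edgeR), while without control 1 Dpp4 was at -0.20 (unadjusted p = 0.107, edgeR) and 7 of 10 genes were lower with a median of -0.09. No gene of the lists was called.

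Genes most like the 10 were sought among 11807 others, by Pearson r with the mean of the centred values over the 12 tumours, as a description. Cdo1, cysteine dioxygenase, an enzyme of liver and fat, was closest at r = 0.94 (0.91 without control 1). It was followed by Tnfrsf13b, a receptor of B cells, at 0.92, the PDZ-domain gene Pdzd2 at 0.90 and Igfbp5, a growth factor binding protein, at 0.89. Ctso and Mgst1, a cathepsin and a glutathione transferase, both had r = 0.89, followed by Irf7, Rcsd1 and Ly86 at 0.88 and Cables1 at 0.87. Without control 1, r of these genes with the mean ran from 0.80 for Rcsd1 to 0.91 for Cdo1. Closest to Pparg were Slamf7 and Plbd1, both at 0.97, and Tmem176b at 0.96, which were at 0.92, 0.89 and 0.90 without control 1. Lpl was matched best by Socs2 (0.94), Gpr160 (0.93) and Cd83 (0.93), and Fabp4 by Hist1h1e (0.89), Rtl8a (0.83) and Cables1 (0.76).

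The genes do not overlap each other in the genome (GRCm38, GENCODE M21), but Lep, Cidec and Pparg share chromosome 6 and Fabp4 and Car3 share chromosome 3. Adipoq (ENSMUSG00000022878) is on chromosome 16 from 23146536 to 23158028 (plus strand), Fabp4 (ENSMUSG00000062515) on chromosome 3 from 10204088 to 10208576 (minus) and Plin1 (ENSMUSG00000030546) on chromosome 7 from 79720218 to 79732903 (minus). Plin4 (ENSMUSG00000002831) is on chromosome 17 from 56100591 to 56109803 (minus), Cidec (ENSMUSG00000030278) on chromosome 6 from 113424634 to 113435760 (minus) and Car3 (ENSMUSG00000027559) on chromosome 3 from 14863512 to 14872523 (plus). Pparg (ENSMUSG00000000440) is on chromosome 6 from 115360951 to 115490399 (plus), Lpl (ENSMUSG00000015568) on chromosome 8 from 68880491 to 68907448 (plus), Cfd (ENSMUSG00000061780) on chromosome 10 from 79890853 to 79892655 (plus) and Lep (ENSMUSG00000059201) on chromosome 6 from 29060220 to 29073877 (plus).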

How the data were processed

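RNA of the tumours was isolated with a column kit and made into libraries with a SMARTER mRNA-seq kit, per the labels' protocols. The genome build was GRCm38 (mm10), per the submitters' processing notes; which aligner, counting tool, annotation and strand setting were used was not stated in any source used here. The deposited table held raw counts for each Ensembl gene and, per the file headers, rlog values on the log2 scale, which were not used. It also held the authors' comparison, deposited with a p-value, its adjusted form, a log2 fold change and a score (a signed linear fold, not used), by a test that no source used here names.

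The main test was edgeR's two-sided quasi-likelihood F test (edgeR 4.0.16, R 4.3.3; robust), with TMM factors, filterByExpr (minimum count 10) and Benjamini-Hochberg adjustment over all 15199 genes tested, at a threshold of 0.05. CPM use TMM-scaled library sizes, and log2 CPM has a prior count of 2. Exact tests used all 792 ways of choosing the control tumours, with intervals in steps of 0.01. Correlations used 100000 permutations. The fit was checked on simulated counts. Alternatives were DESeq2 1.42.0, limma-voom with quality weights for each library (limma 3.58.1), other size factors and filters, and non-robust fitting. A replicate block, a prior count of 0.5, Spearman's rho and the removal of libraries were also used. The 10 genes and the lists were chosen with earlier results of these data known. All 10 genes are named; other genes are those most alike by r, or, of each list, up to 4 with the smallest p and up to 4 with the highest level, except Ucp1, Acvr1c, Slc7a10, Lgals12 and Cidea, chosen after their values were seen.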

Additional observations from a re-analysis of the deposited data

Results flagged for a closer look

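Control 1 was far above the other control tumours for 6 of the genes, in that the gap to the next tumour took up more of the group's range than Dixon's 95% critical value of 0.71 for 5 samples. The values were 3.92 CPM for Plin1 (next tumour 0.990), 8.22 CPM for Plin4 (next 2.40), 5.13 CPM for Cidec (next 1.37), 11.9 CPM for Pparg (next 4.06), 124 CPM for Lpl (next 40.7) and 1.91 CPM for Lep (next 0.499). Induced 4 was far above the other induced tumours for Car3, at 35.8 CPM with the next at 15.4 CPM, where the critical value for 7 samples is 0.568. These are 7 of 20 groups examined. The gaps were taken on linear CPM, and the critical values assume normally distributed values. The nominal rate of 1 in 20 therefore cannot be set against this count, and the gaps on log2 CPM were not tested. The 6 values of control 1 come from 1 library and are not independent of each other.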

How the results depend on the processing

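No alternative fit called any gene over all genes tested. The count of the adipocyte genes with lower fitted values, 8 of 9, was 3 to 8 when 1 library was left out, with 3 without control 1, and their median log2 fold change then ran from -0.90 to 0.19. With 1 library left out, the log2 fold change ran from -1.58 to 0.19 for Plin1, -0.96 to 0.73 for Plin4, -0.98 to 0.49 for Cidec, -0.79 to 0.30 for Lpl and -0.89 to 0.11 for Cfd. It kept its sign for Adipoq (-1.58 to -0.10), Car3 (-1.54 to -0.22), Pparg (-0.82 to -0.09) and Fabp4 (0.061 to 0.32), and by limma-voom Pparg was at -0.17. The difference in mean log2 CPM ran from -1.37 to 0.19 for Adipoq, -1.15 to 0.017 for Plin1, -0.69 to 0.40 for Plin4, -0.92 to 0.27 for Cidec, -0.68 to 0.29 for Lpl and -1.02 to 0.30 for Cfd. Signs also turned for Plin4 (0.44 with a replicate block), Lpl (0.13 by limma-voom) and, without control 1, control 2, induced 3 and induced 4, for Cidec (0.084) and Lpl (0.18); the cause was not tested. The replicate numbers did not pair the tumours: deviations of same-numbered tumours had r from -0.53 to 0.21, and no control tumour was closest to the induced tumour of its own number. The block, on 10 libraries, called 0 genes and left 105 at an unadjusted p under 0.05, against 199 in the same libraries without it (chosen after seeing the data). That count was 324 in the reported fit, 621 with no filter, 607 by DESeq2, 996 by limma-voom, 567 without those 4 libraries and 198 to 745 with 1 library left out. The 35 pairs that varied together were 20 by Spearman's rho, 12 without the pair of tumours farthest from the median, 9 within induced tumours and 19 without control 1, the last chosen after seeing the data. With a filter at a mean CPM of 1, Plin1 and Lep were not tested. Depth limits Lep most, with at most 11 counts outside control 1.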
